A study of Mus musculus with 18 samples.

Results

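The 7 genes described here act in the storage of fat in lipid droplets and in the uptake of fat from lipoproteins: *Hilpda*, *Plin2*, *Plin3*, *Vldlr*, *Angptl4*, *Lpin1* and *Pnpla2*. They were chosen by name and not by a measured value, though earlier results of these data were known. All 7 were found among the 78239 genes of the count tables. RNA was sequenced from whole mouse retinas and from 661W cells, a mouse photoreceptor-like line. In the retina experiment, 5 libraries came from eyes given AAV::*nsHif1a* and 5 from eyes given AAV::eGFP. *nsHif1a* encodes a HIF1A protein with a Myc-tag whose amino acid changes keep it stable and active in normal oxygen, and eGFP is a fluorescent control protein. Both transgenes were carried by the same adeno-associated virus capsid and driven by the mouse opsin promoter mOP, which is active in rods. The virus was injected under the retina at postnatal days 29 to 32, and the retinas were taken 3 weeks post injection. Only part of each retina is transduced in this way, so that a library holds RNA of transduced rods beside that of every other retinal cell. The labels give the mice as C57BL/6J, whereas the study's methods name wild-type 129S6 mice. In the cell experiment, 4 libraries came from 661W cells transfected with a plasmid that expressed *nsHif1a* from the ubiquitous CMV promoter and 4 from cells transfected with CMV-eGFP, all harvested after 20 h. The cells are 1 line, and neither the labels nor the methods say which libraries were separate cultures, so that p-values measure the spread between these libraries only.

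Neutral fat is kept in cells as triglyceride inside lipid droplets, which are coated by perilipins. Triglyceride is built by a chain of enzymes that includes the lipins, and it is broken down by lipases of which PNPLA2, also called ATGL, starts the reaction. Fat arrives from outside the cell partly as lipoprotein particles, which are bound by receptors on its surface or are first hydrolysed by lipoprotein lipase. Photoreceptors use fatty acids as fuel, and mice that lack the receptor VLDLR grow abnormal vessels in the retina. Several of these genes are known targets of hypoxia-inducible factors, which bind DNA at sites with the core ACGTG or GCGTG.

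The promoters of the 2 genes called up below, and of the member with the most ACGTG cores, are shown to set their letters beside the results. Each is the stretch of 300 bases before the outermost annotated start of its gene in GRCm39, written 5′ to 3′ along the gene, and capitals mark a core on either strand.
Hilpda promoter, chr6:29272109-29272408, plus strand: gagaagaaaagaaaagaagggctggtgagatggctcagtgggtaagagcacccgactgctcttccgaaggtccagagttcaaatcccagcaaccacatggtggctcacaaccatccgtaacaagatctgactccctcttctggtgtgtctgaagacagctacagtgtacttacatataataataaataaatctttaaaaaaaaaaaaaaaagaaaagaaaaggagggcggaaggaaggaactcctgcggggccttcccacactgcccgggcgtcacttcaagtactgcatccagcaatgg
Vldlr promoter, chr19:27193562-27193861, plus strand: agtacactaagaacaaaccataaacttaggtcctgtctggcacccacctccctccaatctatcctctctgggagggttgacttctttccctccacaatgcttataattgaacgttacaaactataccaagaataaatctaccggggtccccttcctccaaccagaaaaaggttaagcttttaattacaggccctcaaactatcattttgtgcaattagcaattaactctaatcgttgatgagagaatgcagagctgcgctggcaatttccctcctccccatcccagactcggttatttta
Angptl4 promoter, chr17:34000805-34001104, minus strand: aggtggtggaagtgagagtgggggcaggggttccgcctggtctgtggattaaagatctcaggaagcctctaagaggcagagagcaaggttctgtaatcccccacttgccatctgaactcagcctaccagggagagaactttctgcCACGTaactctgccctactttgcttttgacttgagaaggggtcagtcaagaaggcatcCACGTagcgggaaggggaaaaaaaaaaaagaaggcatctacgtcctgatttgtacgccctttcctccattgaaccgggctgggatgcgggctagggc
Neither *Hilpda* nor *Vldlr* had ACGTG or GCGTG in this window. *Angptl4* had ACGTG on the opposite strand at 2 places, which begin -155 and -97 bases from the start and read CACGT along the gene. Of the other members, *Plin2* had 1 ACGTG at -224, and *Plin3* and *Pnpla2* had neither core. *Lpin1* had GCGTG at -194 and, on the opposite strand, at -164, where it reads CACGC along the gene. Among 21757 protein-coding genes, 18.8% of windows of this length held ACGTG, 30.5% held GCGTG and 41.8% held at least 1 of them. A match is a description of the letters, and no match says only that these letters are not in the window.

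The libraries held between 12898220 and 16167522 counts for the retina and between 13424326 and 17809585 for the cells, so that 3 counts stood for 0.186 to 0.233 CPM and 0.168 to 0.223 CPM. CPM is the usual scaling of a gene's counts by the size of its library, and these floors cover counting error only. The targeted gene was checked first. *Hif1a* was at 157 ± 6.79 CPM in eGFP cells and at 1561 ± 384 CPM in *nsHif1a* cells (SD, n = 4), a log2FC of 3.26 with SE 0.13 (limma, adjusted p = 1.2e-05). In the retina it was at 668 ± 26.1 CPM and 687 ± 31.6 CPM (SD, n = 5), and its log2FC was 0.05 with SE 0.04 (limma, adjusted p = 0.50), so that the total *Hif1a* count does not check the retina labels. Replicates 1 and 2 of the cells, and likewise replicates 3 and 4, differed by 1.47 to 1.59 times the counting noise, against 3.63 to 8.33 times for any other pair within a group. *Hif1a* was at 1222 and 1242 CPM in *nsHif1a* replicates 1 and 2 and at 1954 and 1825 CPM in replicates 3 and 4. For this reason the cell values are also given for each of these pairs. Among the retinas, 3 eGFP libraries (replicates 3, 4 and 5) had 1 to 3 counts of *Xist*, a transcript of female cells, whereas the other eGFP libraries and all *nsHif1a* libraries had 19492 or more, so that the mix of sexes differed between the groups.

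Of the 7 genes, 1 rose past both thresholds in the retina, *Hilpda*, and a different one in the cells, *Vldlr*. The thresholds were a Benjamini-Hochberg adjusted p under 0.05 in limma and a log2FC above 0.5 in size, where log2FC is the log2 of the level with *nsHif1a* over that with eGFP. All 7 passed the filter on low counts in both experiments. Among the 18859 genes tested in the retina, 1.08% were called up and 0.912% down, and among the 15962 tested in the cells, 1.21% were called up and 0.0626% down. When the replicate number entered the fit of the cells as a block, *Vldlr* was still the member called, while 105 genes instead of 193 were called up and 2 instead of 10 down. The median log2FC of the 7 genes was 0.11 in the retina and 0.05 in the cells, beside -0.0021 and -0.0013 over all genes tested.

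**Figure D1:**
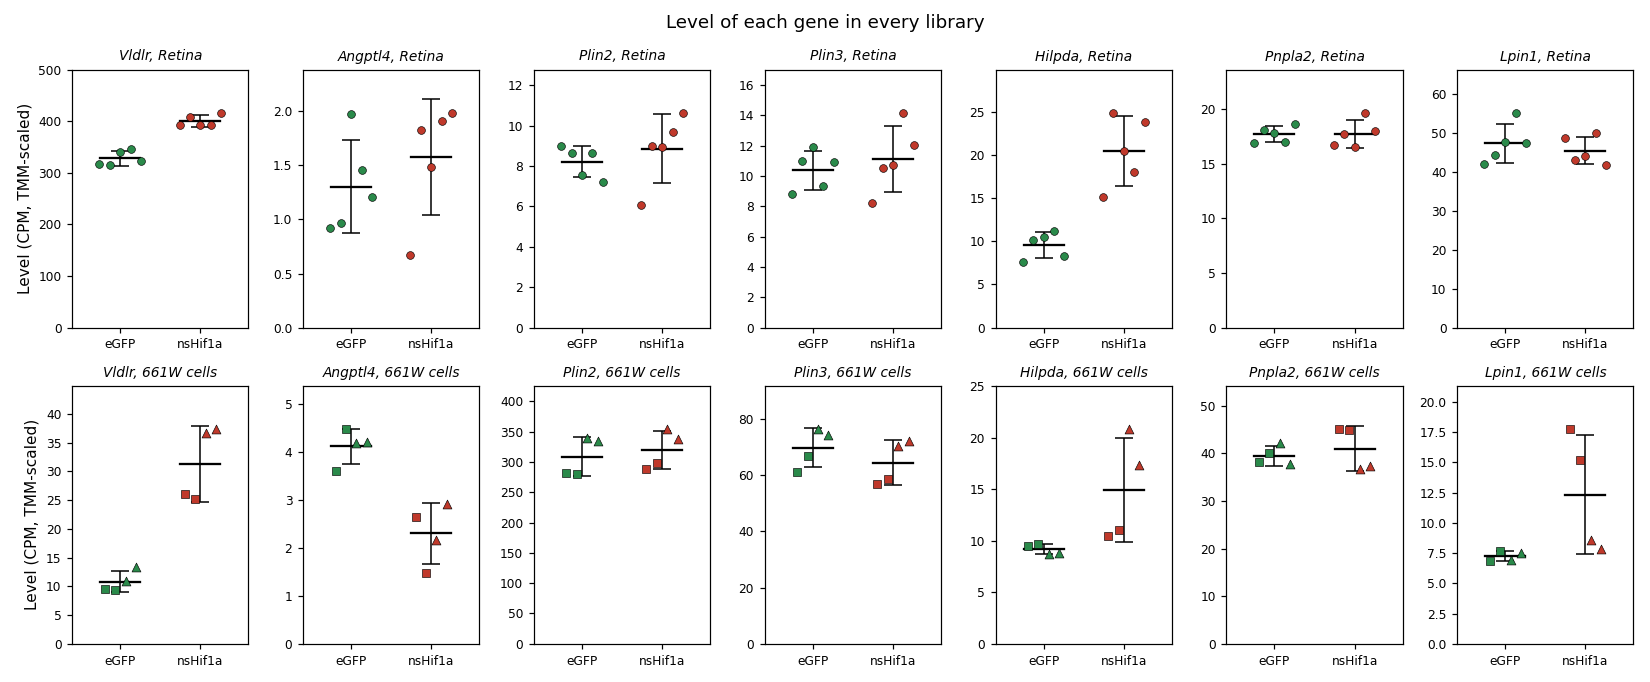
Level of each of the 7 genes in every library, in TMM-scaled CPM on axes that start at 0, for retinas (top row) and 661W cells (bottom row), with green for eGFP and red for *nsHif1a*. Bars show mean and SD, squares in the bottom row are replicates 1 and 2 and triangles replicates 3 and 4, and the groups stand clearly apart for *Hilpda* in the retina (at most 11.2 against at least 15.1 CPM) and for *Vldlr* in the cells (at most 13.3 against at least 25.2 CPM). All *nsHif1a* libraries stood above all eGFP libraries for 3.25% of genes tested in the retina and 7.51% in the cells.

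*Vldlr* (ENSMUSG00000024924.15, chr19:27193862-27231631, plus strand) encodes the receptor that takes up triglyceride-rich lipoproteins. In the eGFP retinas its level was 317, 315, 341, 347 and 323 CPM, and in the *nsHif1a* retinas it was 393, 409, 393, 393 and 417 CPM. Every *nsHif1a* retina stood above every eGFP retina, as was the case for 3.25% of all genes tested. The log2FC was 0.29 with SE 0.04, or 1.22-fold with limits of 1.16 to 1.29 at 95% confidence (limma, adjusted p = 0.0012), so that *Vldlr* rose in the retina by less than the fold threshold. In the cells the level was 9.55, 9.33, 11 and 13.3 CPM with eGFP and 25.99, 25.2, 36.7 and 37.4 CPM with *nsHif1a*. Again the groups did not overlap, as for 7.51% of the genes tested in the cells with all *nsHif1a* libraries above. The log2FC was 1.52 with SE 0.17, or 2.86-fold with limits of 2.20 to 3.71 (limma, adjusted p = 0.0024). It was 1.44 in replicates 1 and 2 and 1.63 in replicates 3 and 4, and these did not pass a test of their difference (limma, adjusted p = 0.42). With the counts of each pair summed to 1 library, which leaves 2 against 2, the log2FC was 1.53 and no longer passed (limma, adjusted p = 0.37). Leaving out each of the 8 cell libraries in turn gave 1.30 to 1.78, and *Vldlr* stayed past both thresholds each time.

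*Angptl4* (ENSMUSG00000002289.17, chr17:33992724-34000804, minus strand) encodes a secreted inhibitor of lipoprotein lipase. In the retina it was at 0.917, 0.969, 1.98, 1.45 and 1.20 CPM with eGFP and at 0.675, 1.83, 1.49, 1.91 and 1.99 CPM with *nsHif1a*, which are 9 to 32 counts a library. The groups overlapped, and the log2FC of 0.28 with SE 0.29 did not pass the test (limma, adjusted p = 0.62). At this depth its limits, -0.35 to 0.92, leave a change of either sign possible. In the cells it was at 3.60, 4.47, 4.18 and 4.20 CPM with eGFP (56 to 71 counts) and at 2.64, 1.48, 2.16 and 2.90 CPM with *nsHif1a* (21 to 49 counts). Every *nsHif1a* library stood below every eGFP library, as for 6.11% of the genes tested. The log2FC was -0.86 with SE 0.20, just outside the threshold on the adjusted p (limma, adjusted p = 0.060), and it was -0.97 in replicates 1 and 2 and -0.74 in replicates 3 and 4. DESeq2 called it (-0.83, adjusted p = 0.013), edgeR did not (adjusted p = 0.073), and limma called it without *nsHif1a* replicate 3 (-0.99, adjusted p = 0.0092) or replicate 4 (-1.04, adjusted p = 0.0070) and with the replicate pairs as a covariate (-0.84, adjusted p = 0.024).

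*Plin2* and *Plin3* encode perilipins that coat lipid droplets in most cell types. *Plin2* (ENSMUSG00000028494.13, chr4:86565912-86588459, minus strand) was at 9.02, 8.66, 7.55, 8.66 and 7.23 CPM in the eGFP retinas and at 6.07, 9.01, 8.94, 9.68 and 10.6 CPM in the *nsHif1a* retinas. The groups overlapped, with the lowest and the highest library both in the *nsHif1a* group, and the log2FC was 0.11 with SE 0.13 (limma, adjusted p = 0.66). In the cells *Plin2* was at 282, 279.6, 339 and 335 CPM with eGFP and at 289, 299, 355 and 338 CPM with *nsHif1a*. The libraries sorted by replicate pair rather than by treatment, and the log2FC was 0.04 with SE 0.09 (limma, adjusted p = 0.85), with limits of -0.17 to 0.24. Near-identical copies take up 3.34% of the 50-base words of its transcripts, mostly those of *Gm12551*, so that a small part of its reads could be assigned elsewhere.

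*Plin3* (ENSMUSG00000024197.11, chr17:56584218-56599873, minus strand) was at 8.79, 10.98, 11.9, 9.32 and 10.9 CPM in the eGFP retinas and at 8.25, 10.5, 10.7, 14.2 and 12.1 CPM in the *nsHif1a* retinas. The groups overlapped, and the log2FC was 0.08 with SE 0.13 (limma, adjusted p = 0.76). In the cells it was at 61.3, 67.0, 76.5 and 74.2 CPM with eGFP and at 56.8, 58.6, 70.5 and 72.0 CPM with *nsHif1a*. As for *Plin2*, replicates 3 and 4 were higher than replicates 1 and 2 in both groups, and the log2FC was -0.12 with SE 0.10 (limma, adjusted p = 0.52).

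*Hilpda* (ENSMUSG00000043421.9, chr6:29272409-29276301, plus strand) encodes a small lipid droplet protein that inhibits PNPLA2 and thereby slows the breakdown of stored fat. In the eGFP retinas its level was 7.57, 10.2, 10.5, 11.2 and 8.36 CPM (99 to 170 counts), and in the *nsHif1a* retinas it was 15.1, 24.9, 20.5, 18.1 and 23.9 CPM (202 to 396 counts). All 5 *nsHif1a* retinas stood above all 5 eGFP retinas, as for 3.25% of all genes tested. The log2FC was 1.15 with SE 0.15, or 2.22-fold with limits of 1.76 to 2.80 (limma, adjusted p = 0.0015), and *Hilpda* remained called without each of the 10 libraries in turn (1.04 to 1.22). In the cells it was at 9.55, 9.66, 8.76 and 8.78 CPM with eGFP and at 10.5, 11.03, 20.9 and 17.4 CPM with *nsHif1a*. The groups did not overlap, as for 7.51% of the genes tested in the cells with all *nsHif1a* libraries above. However, *nsHif1a* replicates 1 and 2 lay just above the eGFP libraries whereas replicates 3 and 4 lay far above them. The log2FC of 0.61 with SE 0.20 did not pass the test over all 8 libraries (limma, adjusted p = 0.13), but it passed with DESeq2 (0.70, adjusted p = 0.036), without *nsHif1a* replicate 1 (limma 0.99, adjusted p = 0.0047) and without *nsHif1a* replicate 2 (limma 0.98, adjusted p = 0.0060). It also passed with the replicate pairs as a covariate (0.69, limma adjusted p = 0.031). Without *nsHif1a* replicate 3 or 4 it was 0.27 or 0.28 and did not pass.

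*Pnpla2* (ENSMUSG00000025509.16, chr7:141034404-141040656, plus strand), the lipase that HILPDA inhibits, had the log2FC nearest to 0 of the 7 genes in the retina. It was at 16.9, 18.2, 17.8, 17 and 18.7 CPM with eGFP and at 16.7, 17.8, 16.5, 19.7 and 18.02 CPM with *nsHif1a*. The groups overlapped throughout, with a log2FC of -0.01, SE 0.06 and limits of -0.15 to 0.13 (limma, adjusted p = 0.94), whose sign turned in several other fits. In the cells it was at 38.1, 40.1, 42.2 and 37.7 CPM with eGFP and at 45.1, 44.9, 36.6 and 37.3 CPM with *nsHif1a*. Here *nsHif1a* replicates 1 and 2 were the highest of the 8 libraries and replicates 3 and 4 the lowest, and the log2FC over all of them was 0.05 with SE 0.08 (limma, adjusted p = 0.75).

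*Lpin1* (ENSMUSG00000020593.17, chr12:16584818-16703913, minus strand) encodes a phosphatidate phosphatase of triglyceride synthesis that also acts as a coactivator in the nucleus. In the retina it was at 42.0, 44.2, 47.7, 55.2 and 47.5 CPM with eGFP and at 48.6, 43.0, 44.1, 49.8 and 41.7 CPM with *nsHif1a*. The groups overlapped, and the log2FC was -0.07 with SE 0.07 (limma, adjusted p = 0.60), which turned to 0.06 with *Xist* class as a covariate. In the cells it was at 6.85, 7.65, 6.94 and 7.51 CPM with eGFP and at 17.8, 15.2, 8.60 and 7.82 CPM with *nsHif1a*. The groups did not overlap, as for 7.51% of the genes tested in the cells with all *nsHif1a* libraries above. Here *nsHif1a* replicates 1 and 2 were the high ones and replicates 3 and 4 lay just above the eGFP libraries. The log2FC of 0.71 with SE 0.24 did not pass the test (limma, adjusted p = 0.15). It passed without *nsHif1a* replicate 3 (1.12, limma adjusted p = 0.0012), without *nsHif1a* replicate 4 (1.13, limma adjusted p = 0.00073) and with the replicate pairs as a covariate (0.75, limma adjusted p = 0.031).

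**Figure D2:**
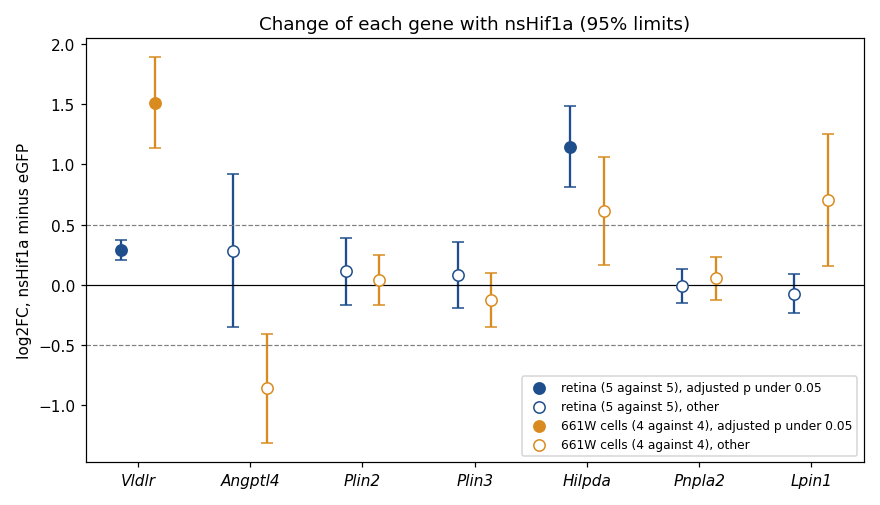
Change of each of the 7 genes with *nsHif1a* as log2FC with 95% limits, for retinas (blue, 5 against 5 libraries) and 661W cells (orange, 4 against 4), where filled points have an adjusted p under 0.05 in limma and dashed lines mark 0.5 in either direction. The filled points are *Vldlr* in the retina (0.29), *Vldlr* in the cells (1.52) and *Hilpda* in the retina (1.15).

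The comparison of the retina with the cells asked which of these changes differed between tissue and cell line. An interaction term over all 18 libraries was past an adjusted p of 0.05 for *Vldlr* alone among the 7 genes, and for 2.33% of the 20999 genes tested. The log2FC of *Vldlr* was smaller in the retina by 1.31 on the log2 scale, with SE 0.15 (limma, adjusted p = 8.5e-05). For *Hilpda* the difference, retina minus cells, was 0.43 with SE 0.27 and limits of -0.13 to 1.004, so that the larger value in the retina was not shown to differ from that in the cells (limma, adjusted p = 0.45). The differences for *Angptl4* (1.09, SE 0.36, limma adjusted p = 0.12) and *Lpin1* (-0.65, SE 0.23, limma adjusted p = 0.15) were large but did not pass. When replicate number was a block, the difference for *Lpin1* was -0.82 and passed (limma, adjusted p = 0.048). For *Plin2*, *Plin3* and *Pnpla2* the differences were 0.03, 0.16 and -0.03. The experiments also differ in promoter, in time and in the share of cells that carry the transgene, and these cannot be told apart from tissue. In the retina, moreover, fewer cells of a type and less RNA per cell cannot be told apart.

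Within the cells, the change in replicates 3 and 4 was set against that in replicates 1 and 2. Replicates of a pair lie close to counting noise, so that this test measures the spread within pairs, and 19.6% of all genes tested differed at an adjusted p under 0.05. Of the 7 genes, 3 did. *Hilpda* had a log2FC of 0.16 with SE 0.13 in replicates 1 and 2 and of 1.12 with SE 0.12 in replicates 3 and 4 (limma, adjusted p of the difference 0.00073). *Lpin1* went the other way, with 1.19 (SE 0.13) in replicates 1 and 2 and 0.19 (SE 0.15) in replicates 3 and 4 (limma, adjusted p of the difference 0.0012). *Pnpla2* had 0.21 and -0.12 (limma, adjusted p of the difference 0.017). The pair with the higher *Hif1a* level was therefore the pair with the larger change of *Hilpda* and the smaller change of *Lpin1*. What distinguished the pairs is not given in the labels, and the part of the *Hif1a* level in these differences was not tested.

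**Figure D3:**
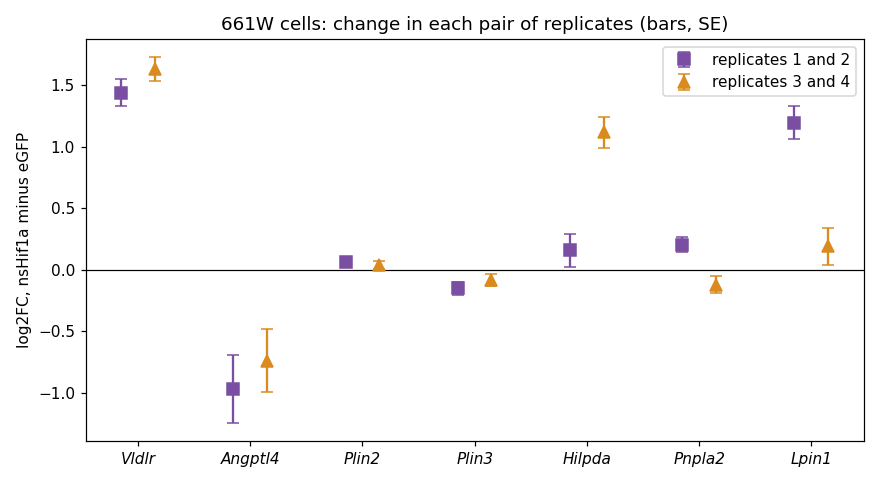
Change of each of the 7 genes in 661W cells as log2FC with its SE, shown for replicates 1 and 2 (squares) and for replicates 3 and 4 (triangles). The pairs lie together for *Vldlr* (1.44 and 1.63) and apart for *Hilpda* (0.16 and 1.12) and *Lpin1* (1.19 and 0.19).

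Retina and 661W cells differed in which of the 7 genes they expressed, before any effect of *nsHif1a*. To compare genes, levels were divided by the length of the gene's exons in the annotation, which may exceed that of the transcript in use. In eGFP retinas *Vldlr* stood alone at the top, at 32.3 ± 1.41 CPM per kb (SD, n = 5). *Hilpda* (4.66 ± 0.744), *Pnpla2* (4.50 ± 0.190) and *Lpin1* (3.98 ± 0.421) followed with overlapping ranges. *Plin3* (1.42 ± 0.176) and *Plin2* (1.07 ± 0.102) came next, with *Angptl4* last (0.290 ± 0.0964). In *nsHif1a* retinas *Hilpda*, at 9.98 ± 1.97 CPM per kb, no longer overlapped with *Pnpla2* or *Lpin1*.

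In eGFP cells the order of the per-length levels was led by *Plin2*, at 40.2 ± 4.20 CPM per kb (SD, n = 4). *Pnpla2* (10.04 ± 0.532) and *Plin3* (9.56 ± 0.951) overlapped, *Hilpda* stood at 4.47 ± 0.234, *Vldlr* (1.06 ± 0.179) and *Angptl4* (0.915 ± 0.0814) overlapped, and *Lpin1* was last at 0.608 ± 0.0338. In *nsHif1a* cells *Vldlr* was at 3.08 ± 0.652 CPM per kb, still below every retina library. Gene by gene, in CPM, the mean of *Plin2* was 37.6-fold and that of *Plin3* 6.72-fold higher in eGFP cells than in eGFP retinas. *Angptl4* was 3.15-fold and *Pnpla2* 2.23-fold higher in the cells, whereas *Vldlr* was 30.4-fold and *Lpin1* 6.54-fold higher in the retina. The levels of *Hilpda* overlapped, at means of 9.56 CPM in the retina and 9.19 CPM in the cells. Retina and cell libraries were filtered and scaled separately for these levels, so that the folds between them rest on no shared scaling. The differences were not tested.

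**Figure D4:**
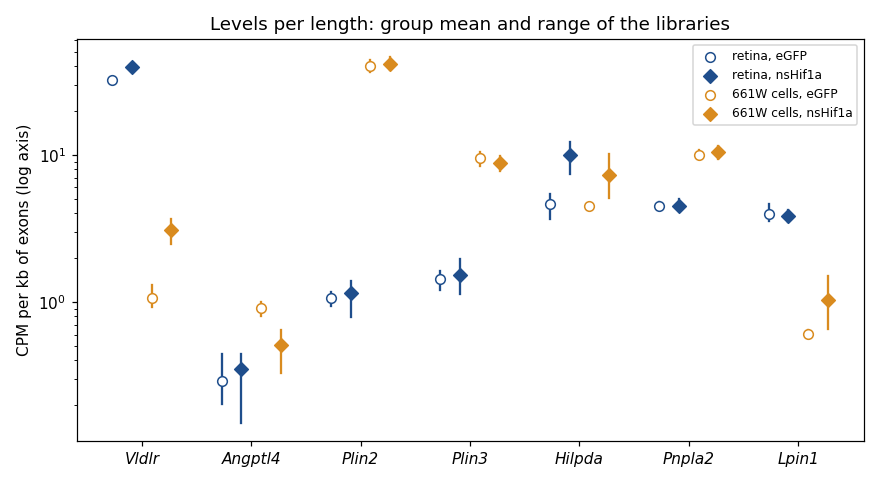
Levels per length of the 7 genes in CPM per kb of exons on a log axis, with the group mean (open circles for eGFP, filled diamonds for *nsHif1a*) and a line for the range of the libraries, in blue for retinas and orange for 661W cells. *Vldlr* leads in the retina (32.3 with eGFP) and *Plin2* in the cells (40.2 with eGFP).

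The other genes of these pathways gave the members their setting. They comprise 107 genes in 8 lists, for droplet proteins, triglyceride synthesis and lipolysis, lipoprotein receptors, lipoprotein lipase with apolipoproteins, fatty acid uptake, fatty acid oxidation, and the PPAR receptors with their targets. In the retina 87 of them were tested, and limma, edgeR and DESeq2 called none up. Of the 87, 18 had an unadjusted p under 0.05 in limma and 15 in each of the other tools. This was a share like that of all genes tested, where limma gave 4097 of 18859. The median log2FC of the 87 list genes was 0.02.

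Below the fold threshold, 3 list genes named here were higher and 2 lower at an adjusted p under 0.05 in the retina. Among all 18859 genes tested, 625 were higher and 466 lower at that adjusted p in limma, at any fold. *Agpat5*, an acyltransferase of the path to triglyceride, was higher by 0.25 on the log2 scale (limma, adjusted p = 0.0043). *Slc27a4*, a fatty acid transport protein, was higher by 0.19 (limma, adjusted p = 0.023), and *Ppard*, a nuclear receptor for fatty acids, by 0.21 (limma, adjusted p = 0.017). *Ppargc1b*, a coactivator of genes of fatty acid oxidation, was lower, with a log2FC of -0.45 (limma, adjusted p = 0.0039), and *Mttp*, which loads lipid onto apolipoprotein B, had -0.23 (limma, adjusted p = 0.042). For both, every *nsHif1a* retina stood below every eGFP retina, as for 2.69% of all genes tested. These small changes kept their direction under the 10 other settings, but each lost the adjusted p under at least 1. It ranged over those settings from 2.8e-06 to 0.061 for *Agpat5* and from 3.1e-05 to 0.058 for *Ppargc1b*, which both missed only in the libraries with *Xist* counts alone. Without *nsHif1a* replicate 1, *Ppargc1b* also passed the fold threshold (-0.50, limma adjusted p = 0.00069). The ranges in adjusted p were 0.0028 to 0.20 for *Slc27a4*, 0.0023 to 0.15 for *Ppard* and 0.035 to 0.15 for *Mttp*. *Slc27a4* and *Ppard* missed with the replicate block, *Xist* class, the gamma-crystallin share or *Xist* counts alone, and *Mttp* with edgeR, without weights, without the filter, with the block, the gamma-crystallin share or *Xist* counts alone. *Slc27a4* also missed without eGFP replicate 4 or 5 or *nsHif1a* replicate 2 or 3, *Ppard* without *nsHif1a* replicate 2, and *Mttp* without eGFP replicate 1, 2 or 4 or *nsHif1a* replicate 1, 2, 3 or 4.

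*Gpat2*, an acyltransferase of the path to triglyceride, was low in both groups and its groups overlapped. It was at 1.76 ± 0.615 CPM with eGFP and 0.788 ± 0.295 CPM with *nsHif1a* (SD, n = 5), which are at most 33 and 15 counts, with a log2FC of -1.34 and SE 0.41 that did not pass (limma, adjusted p = 0.078). It passed with the gamma-crystallin share as a covariate (-1.95, limma adjusted p = 0.030) and without eGFP replicate 3 (-1.60, limma adjusted p = 0.017). *Acsl1*, which activates long-chain fatty acids, had 0.14 (limma, adjusted p = 0.18), and *Apoe*, the apolipoprotein made by Müller glia, had 0.09 (limma, adjusted p = 0.49).

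By list, the median log2FC ranged from -0.04 for the PPAR list to 0.09 for fatty acid oxidation and for fatty acid uptake. No gene among 8 droplet proteins, 8 genes of lipolysis and 16 genes of oxidation passed the adjusted p in limma. The smallest p among the droplet proteins were those of *Cideb*, a protein of droplet fusion (1.52 ± 0.433 against 0.979 ± 0.419 CPM, SD), and *Rab18* (122 ± 5.85 against 128 ± 8.51 CPM), with adjusted p of 0.17 and 0.36 in limma. For lipolysis they were those of *Lipa*, the lysosomal acid lipase (log2FC 0.23, limma adjusted p = 0.11), and *G0s2*, another inhibitor of PNPLA2 (0.58, limma adjusted p = 0.17). For oxidation they were those of *Acadvl* (-0.27, limma adjusted p = 0.096) and *Acadm* (0.17, limma adjusted p = 0.10), acyl-CoA dehydrogenases for very long and medium chains.

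In the cells 76 of the 107 list genes were tested and none was called by limma, edgeR or DESeq2. In each tool 9 of the 76 had an unadjusted p under 0.05. This was a smaller share than that of all genes tested, where limma gave 3304 of 15962. The median log2FC of the 76 list genes was 0.02. The list medians ranged from -0.03 for oxidation to 0.25 for lipoprotein lipase and apolipoproteins, of which 6 genes were tested. The smallest p in that list were those of *Mttp* (10.3 ± 0.775 against 13.1 ± 1.81 CPM, SD) and *Apob* (1.03 ± 0.270 against 1.45 ± 0.138 CPM), with adjusted p of 0.13 and 0.24 in limma. Among the receptors they were those of *Sort1* and *Mylip*, a ligase that marks lipoprotein receptors for degradation, with log2FC of 0.24 and 0.20 and adjusted p of 0.31 and 0.37 in limma. In fatty acid uptake they were those of *Acsl5* (-0.13, limma adjusted p = 0.11) and *Slc27a3* (0.56, limma adjusted p = 0.12), and in synthesis those of *Agpat5* (0.19, limma adjusted p = 0.13) and *Lpin2*, a relative of *Lpin1* (0.14, limma adjusted p = 0.19). *Lipe*, the hormone-sensitive lipase, had a log2FC of 0.26 (limma, adjusted p = 0.45) and *Ddhd2* -0.13 (limma, adjusted p = 0.33). The droplet proteins *Hsd17b11* and *Aup1* had 0.14 and 0.08, and the oxidation enzymes *Acads* and *Hadh* -0.18 and -0.11, with adjusted p of 0.20 to 0.47 in limma. *Slc27a3* and *Lipe* were called without *nsHif1a* replicate 3 (0.80 and 0.55) or replicate 4 (0.81 and 0.57), and *Slc27a3* also with the replicate pairs as a covariate (0.56).

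**Figure D5:**
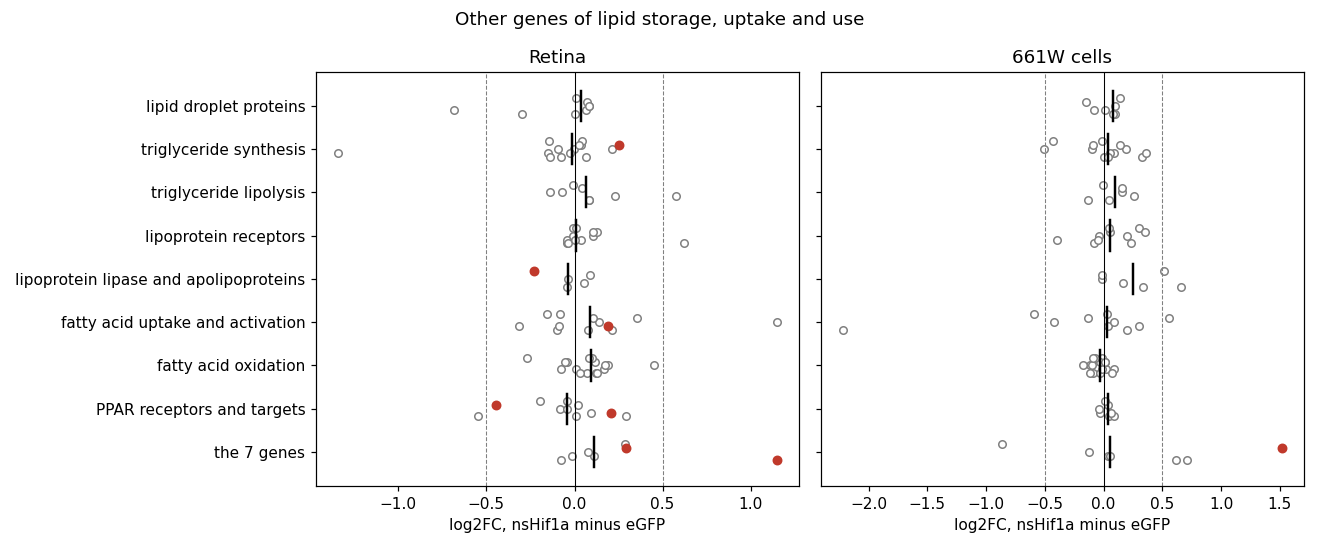
Change of the other lipid genes with *nsHif1a*, as log2FC, by list and with the 7 genes in the bottom row, for retinas (left) and 661W cells (right), where each point is a gene, filled points have an adjusted p under 0.05 in limma, vertical bars are list medians and dashed lines mark 0.5 in either direction. The list medians lie between -0.04 and 0.09 in the retina and between -0.03 and 0.25 in the cells, and in the cells the only filled point is *Vldlr* (1.52).

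The genes whose log2 CPM most resembled that of a called member over the libraries of its experiment were also found. For *Hilpda* over the 10 retinas they were *Plcxd1* (Pearson's r 0.98), *Bnip3l*, a mitophagy receptor (0.97), and *Tbl2* (0.97). For *Vldlr* over the 8 cell libraries they were the glucose transporter *Slc2a1* (0.99), the glycolytic enzyme *Pfkp* (0.99) and *Tenm4* (0.99). These values describe libraries that share the same split into 2 groups and, in the cells, the same pairs.

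Markers of cell types were summed in each retina, and their ranges overlapped between the groups in each list. The 9 rod markers, the most abundant list, summed to 47824 to 52831 CPM with eGFP and to 37489 to 49774 CPM with *nsHif1a*, with all 9 lower and none called. Markers of microglia summed to 28.8 to 167 CPM and 55.9 to 168 CPM, with 10 of 10 higher, a median log2FC of 0.96 and none called. Endothelial markers summed to 231 to 291 CPM and 271 to 343 CPM, with 8 of 8 higher and none called. Most of the endothelial sum came from *Kdr*, at 208 ± 20.1 CPM with eGFP and 250 ± 22.3 CPM with *nsHif1a* (SD, n = 5). Mural cell markers summed to 103 to 138 CPM and 121 to 183 CPM, with 5 of 7 higher. The sums for cones were 817 to 986 CPM and 771 to 919 CPM, with 3 of 7 higher, and those for Müller glia 4050 to 4257 CPM and 3684 to 4192 CPM, with 5 of 7 higher. Markers of neighbouring tissue varied most, with retinal pigment epithelium at 55.04 to 543 CPM and 49.4 to 679 CPM (1 of 7 tested higher) and lens at 1061 to 3904 CPM and 1165 to 21043 CPM (9 of 9 tested higher). Adipocyte markers were near 0, at 1.61 to 3.06 CPM and 1.63 to 3.27 CPM, with *Cidec* and *Cfd* at 0 in every retina. The part of these cell types in the changes of *Hilpda* and *Vldlr* was not tested. With the gamma-crystallin share, which stands for lens RNA, as a covariate, the log2FC of *Hilpda* was 1.35 and that of *Vldlr* 0.32, and in the 7 libraries with *Xist* counts they were 1.22 and 0.34, all past an adjusted p of 0.05 in limma.

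The 661W cells were checked against photoreceptor markers. The 9 rod markers summed to 8.89 to 13.2 CPM and the 7 cone markers to 1.10 to 1.94 CPM over all 8 cell libraries, with most of the rod sum from *Pde6a*, a subunit of the rod phosphodiesterase, at 9.29 ± 1.64 CPM with eGFP and 8.14 ± 0.757 CPM with *nsHif1a* (SD, n = 4). *Nrl*, *Nr2e3* and *Prph2* were at 0 in the *nsHif1a* cells and had at most 2, 2 and 6 counts a library in the eGFP cells. *Opn1mw* was at 0 in the eGFP cells and *Arr3*, cone arrestin, was at 0 in the *nsHif1a* cells. In the other group each had at most 1 count a library. None of these genes passed the filter on low counts, so that none was tested.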

How the data were processed

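Illumina stranded mRNA libraries of 10 retinas and 8 samples of 661W cells were analysed, grouped by their titles. The authors used Rsubread for alignment to GRCm39 and featureCounts, in the strand mode of the kit, for counting on the gencode M36 basic annotation. The deposited values are raw counts, 1 table per experiment, with no filter or normalization. As counting used strand, antisense neighbours of *Hilpda*, *Plin3*, *Vldlr*, *Lpin1* and *Pnpla2* are separate, but reads that fit more than 1 near-identical gene may be lost.

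After filterByExpr (minimum count 10), libraries were scaled by TMM in edgeR 4.0.16. The counts then went through voomWithQualityWeights, lmFit and eBayes of limma 3.58.1 (R 4.3.3), as in the study's methods, separately for retina and cells, and over all 18 libraries for the interaction. Adjusted p-values are Benjamini-Hochberg over all genes tested. CPM are TMM-scaled, and log2 CPM for likeness have a prior count of 2. Other settings were DESeq2 1.42.0, the quasi-likelihood test of edgeR, other scaling and filters, covariates, a replicate block, each library left out and, chosen after the data were seen, summed pairs and the effect within each pair of cell replicates. In the cells, same-numbered libraries deviated together from their group means (r 0.227 to 0.269), but as much with another number (0.246 to 0.287), because replicates 1 and 2 and replicates 3 and 4 resemble each other. Scripts were tested on simulated counts.

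The members, lists and markers were chosen with earlier results of these data known. Named are all members, *Hif1a*, per list and experiment up to 3 called genes or else up to 2 with the smallest p, and the 3 genes most like each called member. Positions, exon lengths and promoters are from GENCODE M39 on GRCm39, in which 78168 of the 78239 genes were found. The results of 2 further list genes are not reported here, and 1 of them is left out of the plot of the lists.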

Additional observations from a re-analysis of the deposited data

Results flagged for a closer look

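The change of *Vldlr* with *nsHif1a* was smaller in the retina than in 661W cells by 1.31 on the log2 scale (limma interaction over 18 libraries, SE 0.15, adjusted p = 8.5e-05), that is, a difference of -1.31, retina minus cells. It was set apart because the test of the difference between the experiments was passed. All 5 *nsHif1a* retinas and all 4 *nsHif1a* cell libraries stood above their eGFP libraries, as for 3.25% (retina) and 7.51% (cells) of genes tested. The direction was thus shared and the size was not. None of the 28 sets of levels (7 genes in 4 groups) had a library far from the rest by Dixon's criterion, where chance alone would set apart about 1 in 20.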

How the results depend on the processing

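In the retina, *Hilpda* was called under every alternative (1.09 to 1.35, adjusted p up to 0.044) and *Vldlr* stayed past the adjusted p under each (0.29 to 0.34, up to 0.017). *Vldlr* in the cells was called under 8 of 9 alternatives (1.51 to 1.54), the exception being summed pairs (1.53, adjusted p = 0.37), for which 2 libraries a group remain and no gene was called up or down (0 and 0, members called 0).

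*Pnpla2* in the retina was 0.0029 with edgeR, 0.0044 with DESeq2, 0.0027 without quality weights, 0.00067 without the filter, 0.0050 with *Xist* class as a covariate and 0.0089 in the libraries with *Xist* counts alone. With that covariate and in those libraries, *Plin2* was -0.0062 and -0.00086, *Lpin1* 0.060 and 0.064, and *Apoe* -0.088 and -0.087. The interaction of *Plin2* was -0.015 without the filter. Retina genes called down numbered 111 without weights, 113 without the filter, 97 with the gamma-crystallin covariate and 76 with *Xist* counts alone, and those called up 104 with *Xist* class as a covariate and 64 with *Xist* counts alone. The count of the interaction was 282 without the filter. In the cells, genes called down numbered 3 with edgeR, 32 with DESeq2, 6 without weights and 16 without the filter, and those called up 328 with DESeq2, which called 3 members, *Hilpda* (0.70) and *Angptl4* (-0.83) beside *Vldlr*. With the replicate pairs as a covariate, 519 genes were called up, 73 down and 4 members, with *Hilpda* at 0.69, *Angptl4* at -0.84 and *Lpin1* at 0.75. The causes were not tested.

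With the replicate number as a block, 59 retina genes were called down, in the cells 105 genes were called up and 2 down, and the interaction of *Lpin1* was -0.82 (adjusted p = 0.048). It changed no other call of a member. In the retina the numbers did not pair the libraries (r -0.148 to 0.138).

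Leaving out each library gave 137 to 313 retina genes called up, 82 to 215 down, and -0.035 to 0.015 for *Pnpla2*. In the cells it gave 82 to 1201 genes up, 2 to 682 down and 1 to 3 members, with 0.27 to 0.99 for *Hilpda*, -1.04 to -0.66 for *Angptl4*, 0.22 to 1.13 for *Lpin1*, -0.057 to 0.15 for *Plin2*, -0.25 to 0.027 for *Plin3*, -0.081 to 0.17 for *Pnpla2*, -0.090 to 0.57 for *Lipe* and -0.017 to 0.46 for *Sort1*. The counts rose to 1201 up without *nsHif1a* replicate 3 and to 682 down without *nsHif1a* replicate 4.

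With 5 and 4 libraries a group that partly resemble each other in pairs, and with at most 71 counts of *Angptl4* a library, a change that did not pass is not shown to be absent.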
